A study of Homo sapiens with 18 samples.

Results

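The transcripts described here encode 8 plasma membrane amino acid transporters, SLC7A11, SLC7A5, SLC3A2, SLC7A1, SLC1A4, SLC1A5, SLC38A1 and SLC38A2. They were chosen by gene symbol, and all 8 were found among the 17714 features that an inhibitor table and a siRNA table of the study have in common. RNA was sequenced from LNCaP, a human prostate cancer line that responds to androgen, in 18 libraries that make 9 groups of 2. In the inhibitor experiment the cells received 10 uM UPF1069, an inhibitor of PARP2, 10 uM olaparib or 10 uM veliparib, both inhibitors of PARP1 and PARP2, or the vehicle DMSO, for 24 h. In the knockdown experiment they were transfected for 72 h with siPARP1_A or siPARP1_B against PARP1, with siPARP2_A or siPARP2_B against PARP2, or with the control siRNA siNC. All libraries come from this 1 line, grown in RPMI 1640 with 10% serum, and the study calls the libraries of a group biological duplicates without saying more about how they were separated. The comparisons ask what blocking or depleting either enzyme did to these transcripts.

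Cells import most amino acids through exchangers and sodium-coupled carriers of the SLC1, SLC3, SLC7 and SLC38 families. SLC3A2 encodes the heavy chain CD98, which carries light chains to the membrane, among them SLC7A5 (LAT1, leucine and other large neutral amino acids, in exchange for glutamine) and SLC7A11 (xCT, cystine in exchange for glutamate, which feeds glutathione synthesis). SLC7A1 (CAT1) takes up arginine and lysine without a heavy chain, SLC1A4 (ASCT1) and SLC1A5 (ASCT2) exchange small neutral amino acids and, for SLC1A5, glutamine, and SLC38A1 and SLC38A2 (SNAT1 and SNAT2) are sodium-coupled carriers of glutamine and alanine. When amino acids run short, the kinase GCN2 (EIF2AK4) slows translation and raises translation of ATF4, a transcription factor that binds C/EBP-ATF response elements in many of these transporter genes. Androgen receptor signalling is known to raise the expression of SLC1A4 and SLC1A5 in prostate cancer cells.

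The start regions below are shown because 5 of the 7 transporters with an entry in the RefSeq promoter table (GRCh38.p14, 250 bases before to 50 bases after each start site) hold the letters TGATGNAA, the core of the C/EBP-ATF response element, on 1 strand or the other. The capitals mark the match. It begins 37 bases after the start site in SLC3A2 (chr11:62881449-62881748, plus strand), 7 bases after it in SLC7A1 (chr13:29595639-29595938, minus strand), 7 bases before it in SLC1A4 (chr2:64989149-64989448, plus strand), 97 bases before an alternative start site of SLC1A5 (chr19:46784765-46785064, minus strand) and 4 bases before the start site in SLC38A1 (chr12:46266467-46266766, minus strand). The 7 genes have 13 windows between them, 5 of which hold the motif, and 1270 of 35116 windows in the whole table hold it (3.62%). A match of letters is a description, not a bound site. The E-box CACGTG, which reads the same on both strands, lies 130 bases before the start site of SLC7A5 and 50 bases before another start site of SLC1A5, and is held by 7.26% of all windows.
SLC3A2: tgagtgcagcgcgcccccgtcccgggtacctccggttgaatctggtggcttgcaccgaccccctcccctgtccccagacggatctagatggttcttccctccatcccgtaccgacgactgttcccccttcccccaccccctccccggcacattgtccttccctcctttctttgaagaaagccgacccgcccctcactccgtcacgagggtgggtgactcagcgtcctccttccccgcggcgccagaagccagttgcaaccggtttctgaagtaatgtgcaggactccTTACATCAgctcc
SLC7A1: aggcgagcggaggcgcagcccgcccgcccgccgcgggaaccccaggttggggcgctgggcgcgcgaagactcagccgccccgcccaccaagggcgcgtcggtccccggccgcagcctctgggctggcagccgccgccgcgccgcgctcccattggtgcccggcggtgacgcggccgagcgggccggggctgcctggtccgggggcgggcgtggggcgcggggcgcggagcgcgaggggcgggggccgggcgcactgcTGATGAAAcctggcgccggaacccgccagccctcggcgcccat
SLC1A4: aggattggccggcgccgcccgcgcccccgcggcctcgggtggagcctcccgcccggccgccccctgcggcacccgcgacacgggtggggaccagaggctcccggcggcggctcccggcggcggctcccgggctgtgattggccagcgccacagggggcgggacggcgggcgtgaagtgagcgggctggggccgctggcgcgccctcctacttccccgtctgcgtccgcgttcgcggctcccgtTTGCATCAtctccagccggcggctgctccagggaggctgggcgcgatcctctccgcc
SLC1A5: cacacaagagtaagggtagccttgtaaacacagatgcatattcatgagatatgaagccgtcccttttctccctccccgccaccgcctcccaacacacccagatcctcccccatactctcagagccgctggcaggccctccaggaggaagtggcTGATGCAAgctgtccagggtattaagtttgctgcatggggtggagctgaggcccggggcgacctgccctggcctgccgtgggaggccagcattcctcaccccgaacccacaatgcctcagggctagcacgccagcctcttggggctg
SLC38A1: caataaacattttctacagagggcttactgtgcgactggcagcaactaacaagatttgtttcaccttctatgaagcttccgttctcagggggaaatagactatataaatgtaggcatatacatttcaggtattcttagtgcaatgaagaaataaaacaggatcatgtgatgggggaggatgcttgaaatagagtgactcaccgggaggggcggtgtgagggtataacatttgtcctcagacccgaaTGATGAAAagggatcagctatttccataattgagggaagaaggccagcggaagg

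The inhibitor libraries held 26.43 to 35.7 M reads and the siRNA libraries 15.45 to 18.62 M, so that 3 reads correspond to 0.0841 to 0.1132 counts per M reads (CPM) and to 0.1691 to 0.2072 normalised reads per M. PARP1 was at 4.777 and 5.67 normalised reads per M with siPARP1_A and at 8.991 and 9.05 with siPARP1_B, against 451.7 and 479.1 with siNC. PARP2 was at 3.058 and 2.564 with siPARP2_A and at 1.784 and 1.014 with siPARP2_B, against 28.96 and 25.84 with siNC. PARP1 was also lower with siPARP2_B, at 160.5 and 144.8 (log2 fold change -1.60), and less so with siPARP2_A (-0.21). PARP2 was also lower with siPARP1_A (-0.34) and siPARP1_B (-0.51). All 11 LNCaP and luminal prostate markers were listed, and their summed level was lower with olaparib, at 3898 to 3932 CPM, than with DMSO, at 5748 to 5848 CPM. It was 2878 to 2912 normalised reads per M with siPARP2_B, 3967 to 4031 with siPARP2_A, 4313 to 4335 with siPARP1_A and 6383 to 6443 with siPARP1_B, against 7092 to 7403 with siNC. In bulk RNA fewer cells of a kind and less RNA per cell cannot be told apart, and the part of these shifts in the results below was not tested. Replicates differed more than counting noise in every group, most with siNC and veliparib, with a chi-square per gene of 8.05 and 6.38.

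Per length of exon, SLC1A5 was the highest of the transporters in DMSO, at 61.19 ± 0.734 CPM per kb of exon (SD, n = 2). SLC38A2 followed at 52.77 ± 0.317, SLC3A2 at 49.3 ± 0.993, SLC7A1 at 30.66 ± 0.381, SLC38A1 at 27.38 ± 0.247 and SLC7A11 at 19.28 ± 0.238 CPM per kb. SLC7A5 and SLC1A4 were far lower, at 3.304 ± 0.202 and 2.776 ± 0.276 CPM per kb. By absolute difference, not by ratio, they were the closest neighbours in this order, though still apart by more than the sum of their SDs. In siNC, on the scale of normalised reads per M and kb of exon, SLC38A2 was highest at 63.82 ± 9.5. SLC3A2 at 33.48 ± 1.04 and SLC1A5 at 32.71 ± 1.61 came next and did not differ beyond their spread. SLC7A11 at 14.46 ± 0.781, SLC38A1 at 11.46 ± 0.319, SLC7A1 at 10.29 ± 0.338, SLC1A4 at 1.519 ± 0.0173 and SLC7A5 at 0.4444 ± 0.0295 completed the order. The tables were normalised separately, so levels are compared within a table only. The low level of SLC7A5 rests on 234 to 547 reads per inhibitor library and 34 to 102 reads per siRNA library, and its reads are uncertain because SLC7A5P1 and other near-identical copies can take a share of them. SLC7A11 shares 865 exon bases with SLC7A11-AS1 on the opposite strand, which was listed at 0.157 to 0.464 CPM.

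Values were compared with limma on log2(value + 1), with p values adjusted over all tested genes of a table, and rose, fell or a call means an adjusted p under 0.05. With UPF1069 all 8 transporters fell, against a background of 14% of the 13337 tested genes that fell with it and 10.3% that rose. The heavy chain and the light chains SLC7A11 and SLC7A5 were lower. SLC7A11 had 115.6 and 115.9 CPM with UPF1069, against 184.3 and 187.5 CPM with DMSO, a log2 fold change of -0.68 (SE 0.043, limma adjusted p = 1.04e-10). SLC7A5 had 8.827 and 9.359 CPM with UPF1069, against 16.36 and 15.0 CPM with DMSO (-0.72, SE 0.078, adjusted p = 3.98e-07). SLC3A2 had 215.4 and 216.6 CPM with UPF1069, against 251.7 and 258.9 CPM with DMSO (-0.24, adjusted p = 0.000117). Both UPF1069 libraries lay below both DMSO libraries for these genes and the other 5, as they did for 37.8% of all tested genes. The glutamine exchanger SLC1A5 had 138.5 and 136.1 CPM with UPF1069, against 202.1 and 205.6 CPM with DMSO (-0.57, adjusted p = 3.33e-10), and the groups were again apart. SLC1A4 had 14.06 and 14.12 CPM with UPF1069, against 17.91 and 20.62 CPM with DMSO (-0.42). The arginine carrier SLC7A1 had 183.6 and 188.7 CPM with UPF1069, against 237.9 and 233.8 CPM with DMSO (-0.34), and also stayed below DMSO in each library. Of the sodium-coupled carriers, SLC38A1 had 215.7 and 216.4 CPM with UPF1069, against 276.0 and 272.5 CPM with DMSO (-0.34), and SLC38A2 had 297.0 and 291.5 CPM with UPF1069, against 349.9 and 346.9 CPM with DMSO (-0.24). The median log2 fold change of the transporters was -0.38, against -0.02 over all tested genes.

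**Figure D1:**
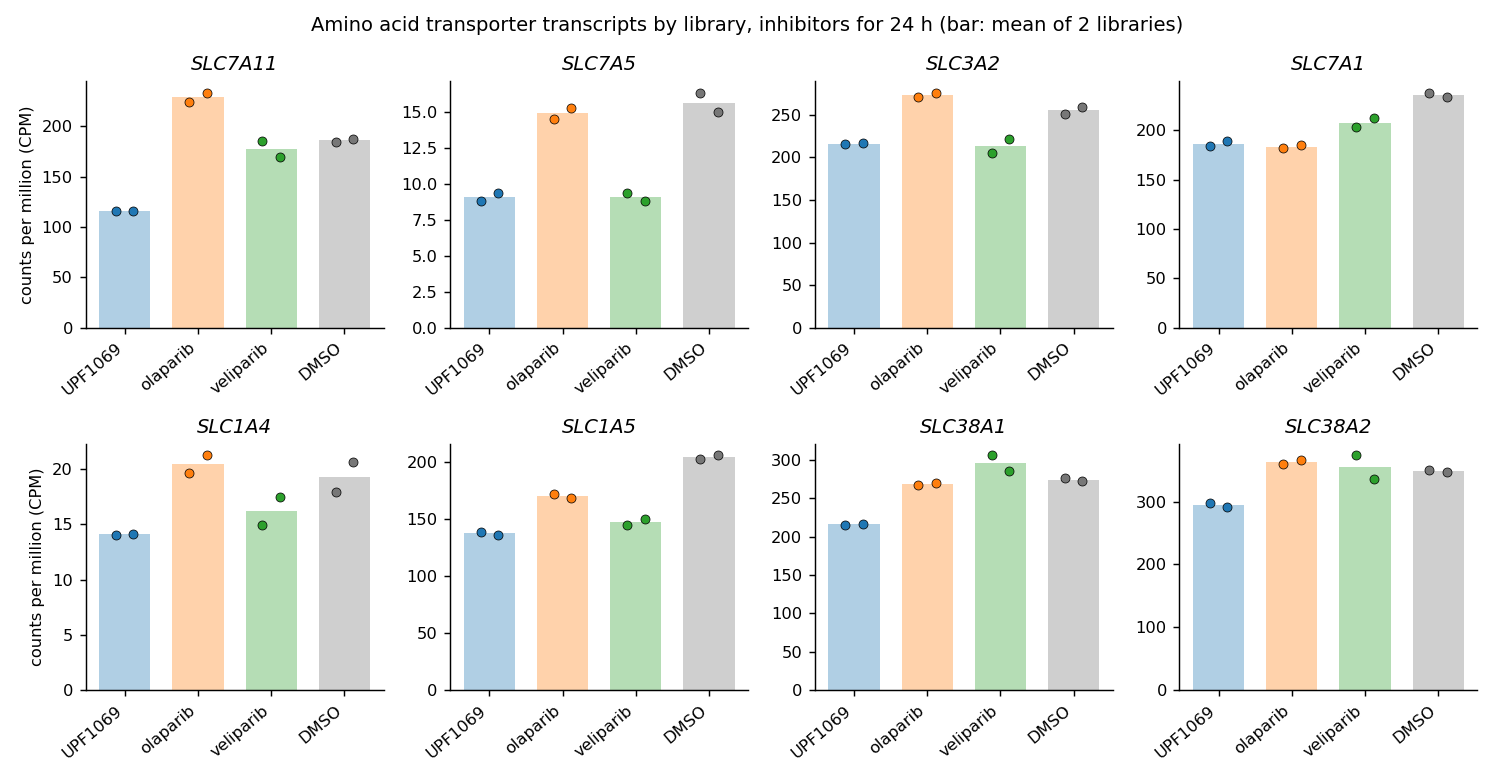
Transcript level (CPM, vertical axis from 0) of each transporter in the 8 inhibitor libraries, with a bar for the mean of 2 libraries and a point per library, for UPF1069, olaparib, veliparib and DMSO. The UPF1069 points lie below the DMSO points in all 8 panels, and SLC7A11 is at 115.6 and 115.9 CPM with UPF1069 but at 224.5 and 233.3 CPM with olaparib.

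The 3 inhibitors share the DMSO libraries. With olaparib the transporters split. SLC7A11 and SLC3A2 rose and SLC7A1 and SLC1A5 fell, while 25.8% of all tested genes rose and 26.8% fell, so that 2 of 8 each way is near the background. SLC7A11 had 224.5 and 233.3 CPM with olaparib, against 184.3 and 187.5 CPM with DMSO (log2 fold change 0.30, SE 0.043, limma adjusted p = 4.13e-06). SLC3A2 had 271.5 and 276.1 CPM with olaparib, against 251.7 and 258.9 CPM with DMSO (0.10, adjusted p = 0.0374). Both olaparib libraries lay above both DMSO libraries for each gene, but the share of all tested genes apart in this way is not given. The SLC3A2 call ended without any 1 of these 4 libraries (adjusted p = 0.07 to 0.24), with DESeq2 (0.0596) and with no filter on low values (0.057). SLC7A1 had 181.9 and 184.5 CPM with olaparib, against 237.9 and 233.8 CPM with DMSO (-0.36, adjusted p = 4.36e-08). SLC1A5 had 171.7 and 168.7 CPM with olaparib, against 202.1 and 205.6 CPM with DMSO (-0.26, adjusted p = 5.7e-06). The values of SLC7A5, with a log2 fold change of -0.07, SLC1A4 with 0.08, SLC38A1 with -0.03 and SLC38A2 with 0.06 did not pass the test. Their 95% intervals ran from -0.23 to 0.10 for SLC7A5, at 14.53 and 15.33 CPM with olaparib, and from -0.08 to 0.25 for SLC1A4, at 19.67 and 21.21 CPM with olaparib, and both genes overlapped their DMSO libraries. SLC38A1 had 267.1 and 270.1 CPM and SLC38A2 359.4 and 365.3 CPM with olaparib.

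With veliparib, before the correction for GC content given below, 5 transporters fell and SLC38A1 rose, while 23.2% of all tested genes fell and 17.2% rose. SLC7A5, the leucine carrier, had 9.396 and 8.831 CPM with veliparib, against 16.36 and 15.0 CPM with DMSO (log2 fold change -0.72, SE 0.078, limma adjusted p = 2.3e-07). SLC1A5 had 145.1 and 149.9 CPM with veliparib, against 202.1 and 205.6 CPM with DMSO (-0.46, adjusted p = 5.96e-09). SLC3A2 had 205.5 and 221.5 CPM with veliparib, against 251.7 and 258.9 CPM with DMSO (-0.26, adjusted p = 2.18e-05). In all 3 the veliparib libraries lay below the DMSO libraries, but the share of all tested genes apart in this way is not given. SLC7A1 had 202.9 and 212.2 CPM with veliparib, against 237.9 and 233.8 CPM with DMSO (-0.18). SLC1A4 had 14.9 and 17.44 CPM with veliparib, against 17.91 and 20.62 CPM with DMSO (-0.24), a call that ended without DMSO replicate 2 (adjusted p = 0.282), without veliparib replicate 1 (0.178) and with DESeq2 (0.0837). SLC38A1 had 305.7 and 285.4 CPM with veliparib, against 276.0 and 272.5 CPM with DMSO (0.11, adjusted p = 0.03), a call that ended without either DMSO library (0.104 and 0.165) or veliparib replicate 1 (0.152). SLC7A11 had 185.4 and 169.1 CPM with veliparib, against 184.3 and 187.5 CPM with DMSO (-0.07), and SLC38A2 had 373.2 and 336.3 CPM with veliparib, against 349.9 and 346.9 CPM with DMSO (0.02). For these last genes the groups overlapped and neither passed the test, though SLC7A11 did without veliparib replicate 1 (-0.14, 0.000731) and SLC38A2 without veliparib replicate 2 (0.10, 0.00461).

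The veliparib fold changes moved with base composition, given as the share of G and C bases (GC content). Over 13075 genes, a description since genes are no replicates, the log2 fold change of veliparib had a Spearman rho of -0.689 with the GC content of the longest transcript, against 0.107 for UPF1069 and -0.118 for olaparib. The transporters span 35.4% GC in SLC7A11 to 61.3% in SLC1A5, with SLC38A2 at 38.1%, SLC38A1 at 41.3%, SLC1A4 at 46.5%, SLC7A1 at 52.7%, SLC3A2 at 57.4% and SLC7A5 at 61.1%. After a correction for GC content and length, SLC7A5 remained lower with veliparib than with DMSO at -0.45 (adjusted p = 8.05e-05), SLC1A5 at -0.19 (4.04e-05) and SLC3A2 at -0.08 (0.0483). SLC7A11 became a call, at -0.23 (1.5e-06), as did SLC38A2, which turned to -0.09 (0.0146). The rise of SLC38A1 was gone, at -0.04 (0.321). SLC7A1 and SLC1A4 stayed called lower, so that after correction 7 transporters were called lower and none higher. Of the 13075 genes 1619 fell and 1421 rose with veliparib after this correction.

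**Figure D2:**
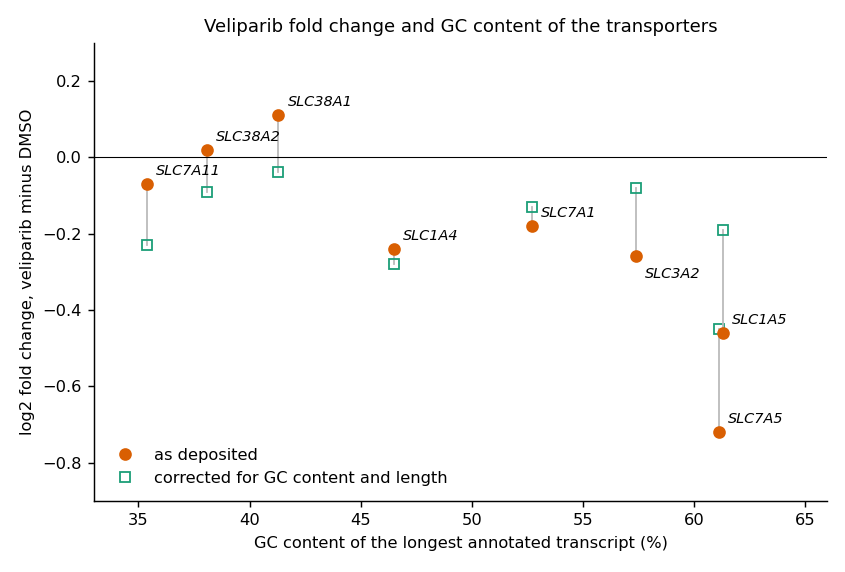
Log2 fold change of veliparib minus DMSO (vertical axis) against the GC content of the longest annotated transcript (%, horizontal axis) for the 8 transporters, from the deposited values (filled circles) and from corrected values (open squares). SLC7A5 and SLC1A5, at 61.1% and 61.3% GC, go to -0.45 and -0.19 after correction, from the uncorrected -0.72 and -0.46, and SLC38A1 crosses the line at 0.

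The inhibitors were also compared directly, and the cystine and heavy chain genes are given first. SLC7A11 was lower with UPF1069 than with olaparib, with a log2 difference of -0.98 (95% interval -1.07 to -0.89, limma adjusted p = 1.84e-14), and lower with UPF1069 than with veliparib (-0.61, adjusted p = 2.36e-10), or -0.40 after the GC and length correction. SLC3A2 was lower with UPF1069 than with olaparib (-0.34, adjusted p = 2.6e-07), and higher with olaparib than with veliparib (0.36, adjusted p = 7.4e-08, and 0.22 after correction). Between UPF1069 and olaparib 7 of 8 transporters were lower with UPF1069, while 27% of all genes were lower and 24.2% higher, and SLC7A1 was the exception at 0.02 (interval -0.06 to 0.10). The differences were -0.66 for SLC7A5, -0.51 for SLC1A4, -0.31 for SLC1A5, -0.31 for SLC38A1 and -0.30 for SLC38A2. Between UPF1069 and veliparib 5 of 8 were lower with UPF1069 and none was higher, while 24.9% of all genes were lower and 25.9% higher. There SLC38A1 (-0.45), SLC38A2 (-0.27) and SLC7A1 (-0.16) were called lower, at -0.28, -0.10 and -0.21 after correction. SLC1A4 did not pass (-0.18). SLC7A5 differed by 0.00 (interval -0.16 to 0.16) and SLC3A2 by 0.02 (-0.06 to 0.10), values that went to -0.27 and -0.15 after correction (adjusted p = 0.00588 and 0.000132). SLC1A5 differed between UPF1069 and veliparib by -0.10, a call that ended without either UPF1069 library (0.0911 and 0.188) and with DESeq2 (0.0627), and after correction it was -0.38. Between olaparib and veliparib 5 transporters were higher with olaparib and 2 lower, while 31.7% of all genes were higher and 27.7% lower. The largest of these differences before correction was that of SLC7A5, at 0.66 (adjusted p = 2.1e-07), which ran from 0.44 to 0.7 under the other settings. SLC7A11 (0.37) and SLC1A4 (0.32) were also higher with olaparib, SLC7A1 (-0.18) and SLC38A1 (-0.14) were lower, and SLC38A2 did not pass (0.03). SLC1A5 was higher with olaparib than with veliparib by 0.21, a difference that turned to -0.02 after correction (0.559). The lower SLC38A1 with olaparib also ended as a call after correction, at -0.02 (0.588), and was -0.09 without veliparib replicate 1. Without veliparib replicate 1 the pairs that had not passed became calls for SLC38A2, higher with olaparib than with veliparib by 0.11 (0.00165), and SLC1A4, lower with UPF1069 than with veliparib (-0.29, 0.00108). The p values of these 3 pairs are adjusted over all genes of each pair, and all pairs share 1 fit.

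With siPARP1_A 3 transporters rose and 4 fell, while 25.5% of the 12701 tested genes rose and 28.9% fell. With siPARP1_B 7 rose and none fell, while 16.4% of all genes rose and 23.9% fell. The 4 siRNAs share the siNC libraries, so values are given side by side. The arginine carrier SLC7A1 had 46.5 and 48.16 normalised reads per M with siPARP1_A, against 80.97 and 77.29 with siNC (log2 fold change -0.73, SE 0.067, limma adjusted p = 1.53e-09). With siPARP1_B it had 84.51 and 95.47, against the same siNC values (0.18), a call that ended without siPARP1_B replicate 2 (adjusted p = 0.393) or siNC replicate 2 (0.17), and was 0.27 without siPARP1_B replicate 1. The neutral exchanger SLC1A4 had 6.772 and 6.434 normalised reads per M with siPARP1_A and 17.12 and 16.86 with siPARP1_B, against 10.45 and 10.62 with siNC (-0.60 and 0.64, adjusted p = 5.66e-05 and 5.15e-05). So SLC1A4 lay below siNC in both libraries of one sequence and above it in both libraries of the other. The share of all tested genes apart from siNC in this way is not given. Its relative SLC1A5 had 130.3 and 125.2 with siPARP1_A and 173.7 and 175.8 with siPARP1_B, against 105.2 and 112.8 with siNC (0.23 and 0.68). The siPARP1_A call of SLC1A5 ended without siNC replicate 1 (0.0874) and without siPARP1_A replicate 1 (0.0732). The heavy chain SLC3A2 had 149.9 and 147.5 with siPARP1_A and 199.2 and 188.3 with siPARP1_B, against 169.5 and 177.2 with siNC (-0.22, or -0.14 when scaled by library totals alone, and 0.16). The siPARP1_B call of SLC3A2 ended without siNC replicate 1 (0.168) and without siPARP1_B replicate 1 (0.236).

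The light chain SLC7A5 rose with each of the 4 siRNAs, and siNC was its lowest group. It had 4.051 and 4.205 normalised reads per M with siPARP1_A, 4.462 and 4.559 with siPARP1_B, 3.976 and 4.877 with siPARP2_A and 4.282 and 5.748 with siPARP2_B, against 2.208 and 2.01 with siNC. The log2 fold changes were 0.72, 0.83, 0.80 and 0.94 (SE 0.152 each, limma adjusted p = 0.000279, 0.00011, 0.000109 and 6.62e-06), and none of the 8 knockdown libraries overlapped siNC. The 4 comparisons rest on the same 2 siNC libraries. Of all tested genes 25.5%, 16.4%, 24.5% and 30.9% rose with these siRNAs in the same order. The share that rose with all 4, or lay apart from siNC, is not given. At such low levels the log2(value + 1) scale understates the change, and edgeR on whole reads gave 0.99, 1.13, 1.06 and 1.28.

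**Figure D3:**
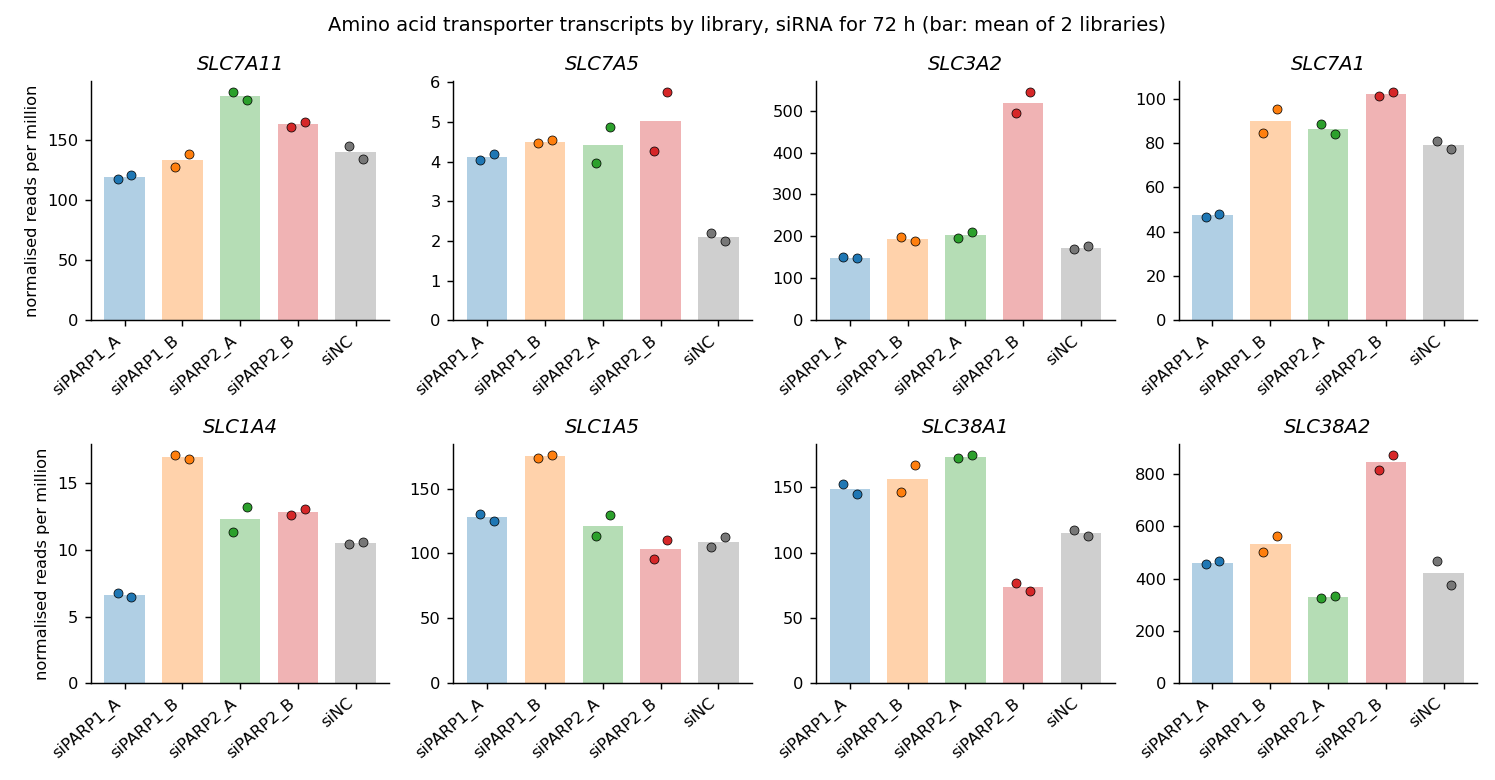
Transcript level (normalised reads per M, vertical axis from 0) of each transporter in the 10 siRNA libraries, with a bar for the mean of 2 libraries and a point per library, for siPARP1_A, siPARP1_B, siPARP2_A, siPARP2_B and siNC. SLC3A2 and SLC38A2 stand highest with siPARP2_B, at 494.0 and 543.2 and at 816.8 and 872.7, where SLC38A1 is lowest, at 76.79 and 70.72.

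With siPARP2_B 6 transporters rose and 1 fell, while 30.9% of all tested genes rose and 35.2% fell. SLC3A2 and SLC38A2, a glutamine carrier induced by amino acid starvation, are described first, and SLC7A5 was given above. SLC3A2 had 494.0 and 543.2 normalised reads per M with siPARP2_B, against 169.5 and 177.2 with siNC, 2.98-fold higher on the log2(value + 1) scale (1.57, SE 0.06, limma adjusted p = 2.06e-17). SLC38A2 had 816.8 and 872.7 with siPARP2_B, against 465.7 and 377.0 with siNC, 2.01-fold higher (1.01, SE 0.073, adjusted p = 7.2e-12). SLC38A1 went the other way, with 76.79 and 70.72 with siPARP2_B, against 117.0 and 112.5 with siNC (-0.63, adjusted p = 6.01e-09). None of these groups overlapped, but the share of all tested genes apart in this way is not given. The same libraries had the lowest summed LNCaP markers, given above, and a lowered PARP1. In them the 1 listed endothelial marker of 3 was at 8.228 to 8.505 normalised reads per M, against 1.558 to 2.24 with siNC, and the 3 listed stromal markers of 5 summed to 4.877 to 5.297, against 2.532 to 2.929 with siNC. Both were also above siNC with siPARP1_A, at 3.504 to 3.688 and 3.058 to 3.386, but not with siPARP1_B or siPARP2_A. In the inhibitor experiment the endothelial marker was at 10.35 to 11.34 CPM with DMSO. The part of these values in the result was not tested. SLC7A1 had 101.2 and 102.8 with siPARP2_B, against 80.97 and 77.29 with siNC (0.36). SLC7A11 had 160.7 and 164.8, against 144.8 and 134.1 with siNC (0.22, and 0.39 when scaled by library totals alone). SLC1A4 had 12.61 and 13.07, against 10.45 and 10.62 with siNC (0.26, or 0.41 when scaled by library totals alone), a call that ended without any 1 of these libraries (adjusted p = 0.0736 to 0.138), with DESeq2 (0.0907) and with no filter on low values (0.0635). SLC1A5 had 95.76 and 110.3 with siPARP2_B, against 105.2 and 112.8 with siNC, overlapping groups that did not pass the test (-0.08), or -0.18 and called without siPARP2_B replicate 2 (0.045).

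With siPARP2_A 4 transporters rose and SLC38A2 fell, while 24.5% of all tested genes rose and 24.9% fell. SLC38A1 had 172.2 and 174.6 normalised reads per M with siPARP2_A, against 117.0 and 112.5 with siNC (log2 fold change 0.59, SE 0.066, limma adjusted p = 5.83e-08). SLC7A11, the cystine carrier, had 189.1 and 182.7 with siPARP2_A, against 144.8 and 134.1 with siNC (0.41, adjusted p = 3.49e-06). SLC3A2 had 195.7 and 210.7 with siPARP2_A, against 169.5 and 177.2 with siNC (0.23), a call that ended without siPARP2_A replicate 2 (0.0638). All siPARP2_A libraries of these genes lay above siNC, but the share of all tested genes apart in this way is not given. SLC38A2 had 326.0 and 333.5 with siPARP2_A, against 465.7 and 377.0 with siNC (-0.34), or -0.19 without siNC replicate 1 (0.0256). SLC7A1 had 88.63 and 83.98, SLC1A4 11.38 and 13.26 and SLC1A5 113.6 and 129.4 with siPARP2_A, each above siNC, but their log2 fold changes of 0.12, 0.20 and 0.15 did not pass; that of SLC1A5 did without siPARP2_A replicate 1 (0.25, 0.0187). With the siPARP1 sequences SLC38A1 had 152.4 and 144.7 (siPARP1_A, 0.37) and 146.0 and 166.9 (siPARP1_B, 0.44), also above its siNC libraries. SLC7A11 had 117.2 and 120.7 with siPARP1_A, below siNC (-0.23, or -0.15 when scaled by library totals alone), and 127.3 and 138.3 with siPARP1_B, which overlapped siNC (-0.07, not called). SLC38A2 had 457.0 and 465.5 with siPARP1_A (0.14, not called, but called at 0.29 without siNC replicate 1 and at 0.21 when scaled by library totals alone) and 500.9 and 561.8 with siPARP1_B (0.34, or 0.19 without siNC replicate 2), against a siNC spread of 377.0 to 465.7.

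**Figure D4:**
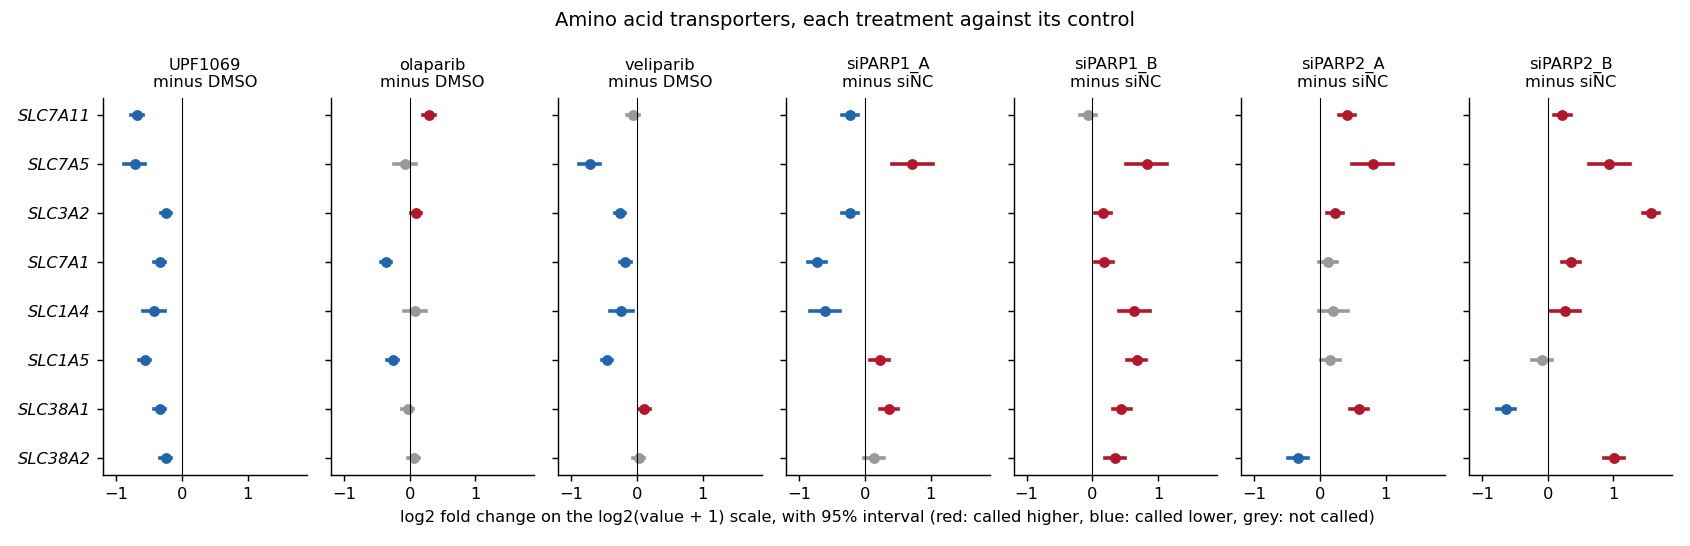
Log2 fold change on the log2(value + 1) scale (horizontal axis) of each transporter (rows) with its 95% interval, in 1 panel per treatment against its control. Red marks a call higher, blue a call lower and grey no call; UPF1069 lies left of 0 in all 8 rows, and SLC3A2 with siPARP2_B lies farthest to the right, at 1.57.

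The sequences against 1 target were also compared directly. Between siPARP1_A and siPARP1_B 6 of 8 were lower with siPARP1_A and none was higher, while 26.5% of all genes were lower and 28.4% higher. SLC1A4 differed by -1.24 (95% interval -1.47 to -1.02, limma adjusted p = 7.56e-10), SLC7A1 by -0.91 (-1.05 to -0.77, adjusted p = 2.64e-11), SLC1A5 by -0.45 (adjusted p = 7e-06) and SLC3A2 by -0.38 (adjusted p = 7.88e-06). The calls of SLC7A11 (-0.16) and SLC38A2 (-0.20) each ended without siPARP1_A replicate 1 (0.153 and 0.108), without siPARP1_A replicate 2 (0.0623 and 0.0669) and without siPARP1_B replicate 2 (0.282 and 0.288). SLC7A5 (-0.10, interval -0.42 to 0.21) and SLC38A1 (-0.07, interval -0.21 to 0.06) did not pass. Between siPARP2_A and siPARP2_B, SLC38A1 was higher with siPARP2_A by 1.22 (1.09 to 1.36, adjusted p = 2.28e-14), and SLC3A2 and SLC38A2 were lower (-1.35 each, adjusted p = 5.25e-16 and 2.5e-14). SLC7A1 was lower with siPARP2_A (-0.24, or -0.43 when scaled by library totals alone). SLC7A11 and SLC1A5 were higher with siPARP2_A by 0.19 and 0.24, values that went to 0.00 and 0.05 when libraries were scaled by their totals alone (0.99 and 0.567). The SLC7A11 call ended without siPARP2_A replicate 1 (0.0648), and that of SLC1A5 without siPARP2_A replicate 2 or siPARP2_B replicate 1 (0.14 each). SLC7A5 (-0.14, interval -0.46 to 0.17) and SLC1A4 (-0.06, interval -0.29 to 0.17) did not pass. The 3 higher and 3 lower calls between the siPARP2 sequences are near the background of 34.3% of all genes higher and 30.6% lower.

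The mean of the siPARP2 sequences was set against the mean of the siPARP1 sequences. SLC3A2 was higher with siPARP2 by 0.93, SLC7A1 by 0.52, SLC7A11 by 0.47 and SLC1A4 by 0.21, while SLC1A5 and SLC38A1 were lower, with differences of -0.42 and -0.43 (limma adjusted p = 1.35e-15, 8.22e-10, 7.02e-10, 0.0189, 7.2e-08 and 1.7e-08). Of all tested genes 33.3% were higher and 32.2% lower. SLC7A11 was the 1 transporter whose siPARP2 libraries, at 160.7 to 189.1 normalised reads per M, all lay above its siPARP1 libraries, at 117.2 to 138.3, while 11.8% of all tested genes were apart in this way. The libraries of the other 7 transporters overlapped. The p values leave out the spread between the sequences against a target. SLC3A2 with siPARP2_A, at 195.7 and 210.7, overlapped siPARP1_B, at 199.2 and 188.3, so its higher mean rests largely on siPARP2_B. SLC1A4 with siPARP1_B, at 17.12 and 16.86, lay above its siPARP2 libraries, at 11.38 to 13.26, so its higher mean rests on siPARP1_A. SLC7A1 with siPARP2_A, at 88.63 and 83.98, overlapped siPARP1_B, at 84.51 and 95.47. For SLC38A1 the siPARP2 sequences, at 172.2 and 174.6 with siPARP2_A and 76.79 and 70.72 with siPARP2_B, lay on opposite sides of the siPARP1 libraries, at 144.7 to 166.9, so the lower mean rests on siPARP2_B. SLC7A5 (0.10, interval -0.13 to 0.32) and SLC38A2 (0.09, interval -0.01 to 0.20) did not pass, SLC38A2 becoming a call without siPARP1_B replicate 2 (0.13, 0.0462). The SLC1A4 call ended without siPARP1_A replicate 2 (0.0558), without siPARP2_A replicate 2 (0.107) and with DESeq2 (0.0766).

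ATF4 itself fell with UPF1069, to 416.9 and 414.6 CPM, and with veliparib, to 417.7 and 442.4 CPM, against 518.3 and 530.0 CPM with DMSO (log2 fold changes -0.33 and -0.29, limma adjusted p = 6.04e-07 and 2.52e-06), while olaparib gave 547.9 and 555.8 CPM (0.07, not called). With siPARP1_A it had 120.7 and 122.5 normalised reads per M, against 272.5 and 299.6 with siNC (-1.23, adjusted p = 1.57e-14). With siPARP1_B it rose to 382.5 and 357.2 (0.37), with siPARP2_A it fell to 218.2 and 222.5 (-0.37), and with siPARP2_B it had 285.2 and 258.5 (-0.07, not called), against the same siNC libraries. ATF4 is controlled largely at translation, which these data do not measure. The veliparib values of ATF4 and of the lists below are not corrected for GC content unless a correction is named. The veliparib fold changes moved with GC content, as given above, so these falls may be overstated or understated. The counts of the gene lists below stand against the shares of all tested genes, which were 10.3% rose and 14% fell with UPF1069, 25.8% and 26.8% with olaparib, 17.2% and 23.2% with veliparib, 25.5% and 28.9% with siPARP1_A, 16.4% and 23.9% with siPARP1_B, 24.5% and 24.9% with siPARP2_A, and 30.9% and 35.2% with siPARP2_B. A list is called near the background where its numbers of rises and of falls both lie within 3 genes of those that these shares give, a limit chosen after the counts were seen. Of its list of 16 kinases and factors of the integrated stress response, 1 rose and 8 fell with UPF1069, 5 rose and 5 fell with olaparib, and 3 rose and 8 fell with veliparib. TRIB3, a pseudokinase induced by ATF4, had a mean of 104 CPM with UPF1069 and 119 CPM with veliparib, against 165 CPM with DMSO (-0.65 and -0.47), and DDIT3, the factor CHOP, rose with olaparib by 0.70. With siRNA, 3 rose and 6 fell with siPARP1_A, 8 rose and 3 fell with siPARP1_B, 3 rose and 6 fell with siPARP2_A, and 7 rose and 4 fell with siPARP2_B. The counts with olaparib, siPARP1_A, siPARP2_A and siPARP2_B were near the background, while the 8 falls with UPF1069 and the 8 rises with siPARP1_B stand against 2.2 and 2.6 that the shares give. CEBPG, a partner of ATF4, fell with siPARP1_A (-1.36) and with siPARP2_B (-0.79), and ATF3 rose with siPARP2_B by 1.41.

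Of 20 further targets of ATF4, mostly enzymes of amino acid synthesis, 1 rose and 13 fell with UPF1069 (median log2 fold change -0.26, against -0.02 over all genes), 6 rose and 8 fell with olaparib (-0.02, against 0.00) and 17 fell with veliparib (-0.26, against 0.00; 14 fell after correction for GC content and length). The shares of all genes give 2.8 falls with UPF1069 and 4.6 with veliparib before correction, and the olaparib counts were near the background. After correction 1619 of 13075 genes fell with veliparib, against 3096 of 13337 before it. CHAC1, which degrades glutathione, averaged 18.1 CPM with UPF1069, 41.2 CPM with olaparib and 17.6 CPM with veliparib, against 31.7 CPM with DMSO (-0.78, 0.37 and -0.82). PSAT1, of serine synthesis, averaged 267 CPM with UPF1069, against 410 CPM with DMSO (-0.62), and asparagine synthetase, ASNS, averaged 367 CPM with olaparib, against 262 CPM with DMSO (0.48). With siRNA, 10 rose and 7 fell with siPARP1_A (median 0.18, against -0.01), 15 rose with siPARP1_B (0.36, against -0.03), 12 rose and 2 fell with siPARP2_A (0.25, against 0.00), and 11 rose and 6 fell with siPARP2_B (0.21, against -0.03). The shares of all genes give 5.1, 3.3, 4.9 and 6.2 rises for these siRNAs in the same order. SHMT2, the mitochondrial enzyme that makes glycine from serine, averaged 404 normalised reads per M with siPARP1_A, 564 with siPARP1_B and 494 with siPARP2_A, against 149 with siNC (1.43, 1.91 and 1.72). PHGDH, the first enzyme of serine synthesis, rose with the same siRNAs by 1.28, 1.30 and 1.18, and CHAC1 rose with siPARP2_B by 1.73. VLDLR, a lipoprotein receptor, fell with siPARP1_A and siPARP2_A (-1.07 and -1.34), and MTHFD2, of mitochondrial folate metabolism, fell with siPARP2_B (-0.98). With siPARP1_A the level of ATF4 fell while 10 of the 20 targets rose and 7 fell.

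**Figure D5:**
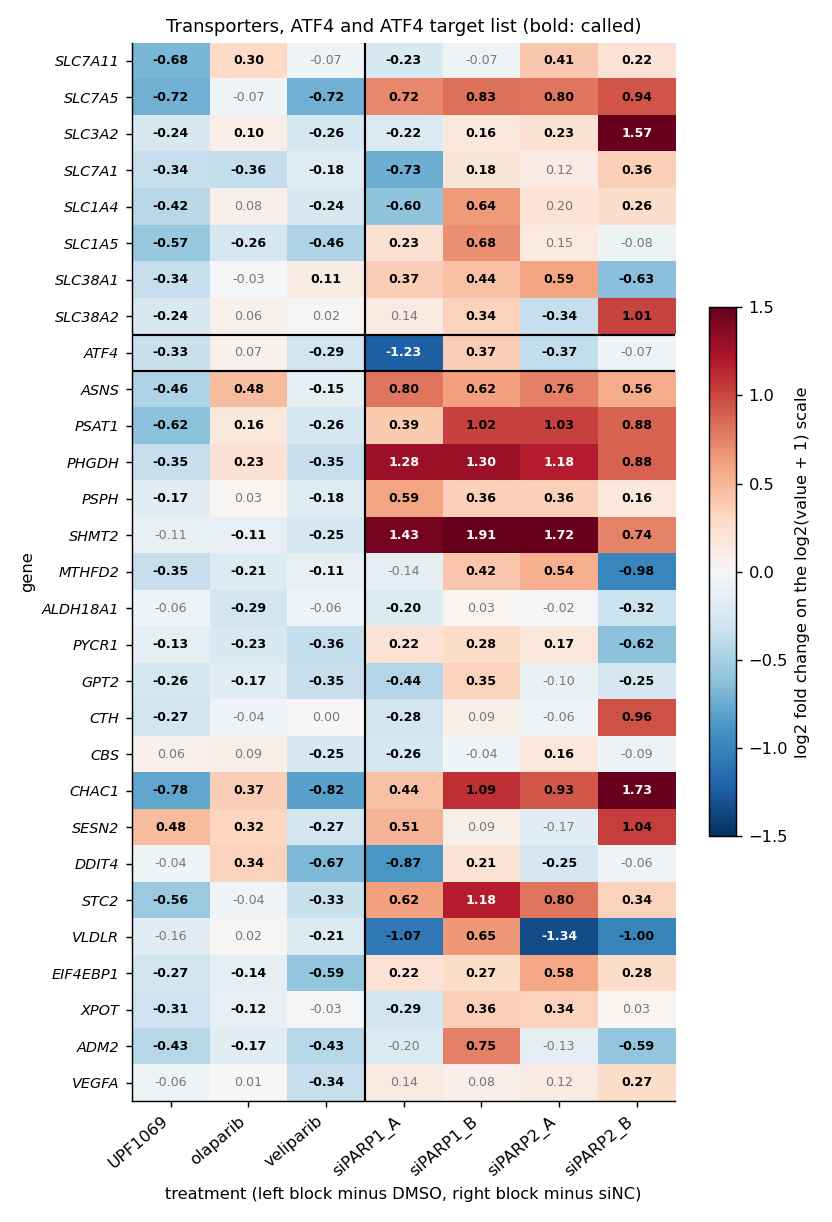
Log2 fold change on the log2(value + 1) scale (colour and printed value) of the 8 transporters, ATF4 and 20 further ATF4 targets (rows), for the inhibitors minus DMSO and the siRNAs minus siNC (columns); bold marks a call. The UPF1069 and veliparib columns are mostly blue, and SHMT2, PHGDH, PSAT1 and ASNS are red in all 4 siRNA columns.

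Other plasma membrane amino acid transporters were tested as a list of 25, of which 14 passed the minimum level with the inhibitors and 15 with the siRNAs. With UPF1069 3 rose and 5 fell (3 to 4 of the 14 called without any 1 library, and 4 with DESeq2), with olaparib 2 rose and 8 fell, where the shares of all genes give 3.6 and 3.8, and with veliparib 5 fell, near the background. SLC43A1 (LAT3), a leucine carrier that needs no heavy chain, averaged 29.3 CPM with olaparib and 50.4 CPM with veliparib, against 63.2 CPM with DMSO (log2 fold changes -1.08 and -0.32), and SLC38A4, a relative of SLC38A2, averaged 0.028 CPM with olaparib, below 3 reads per library, against 2.63 CPM with DMSO. With siPARP1_A 8 rose and 3 fell, with siPARP1_B 6 rose and 3 fell, with siPARP2_A 5 rose and 2 fell, and with siPARP2_B 6 rose and 6 fell. The counts with siPARP2_A and siPARP2_B were near the background, and the shares of all genes give 3.8 rises with siPARP1_A and 2.5 with siPARP1_B. SLC1A3, a glutamate carrier, averaged 14.9 normalised reads per M with siPARP1_A and 4.71 with siPARP2_A, against 1.93 with siNC (2.44 and 0.96). SLC16A10, a carrier of aromatic amino acids, rose with siPARP1_A by 2.23. SLC36A1, a lysosomal and surface proton-coupled carrier, fell with siPARP1_A and siPARP1_B (-1.27 and -1.25). SLC7A8 (LAT2), another light chain of SLC3A2, fell with siPARP2_A and siPARP2_B (-0.57 and -0.84).

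The genes that use what these transporters import were read from the same fits. Of 15 genes of glutathione synthesis and redox, the use of cystine, 4 rose and 1 fell with UPF1069 (0 to 3 called without any 1 library), 7 rose and 2 fell with olaparib (5 called without olaparib replicate 1), and 2 rose and 5 fell with veliparib (4 called without DMSO replicate 1, and 3 in the values corrected for GC content). The UPF1069 and veliparib counts were near the background, and the shares of all genes give 3.9 rises and 4.0 falls with olaparib. NQO1, a quinone reductase, rose with olaparib by 0.68 and glutathione reductase, GSR, fell (-0.55), where SLC7A11 rose. Of the 14 tested in the siRNA table, 4 rose and 6 fell with siPARP1_A, 1 rose and 7 fell with siPARP1_B, 4 rose and 8 fell with siPARP2_A, and 7 rose and 2 fell with siPARP2_B. The siPARP1_A and siPARP2_B counts were near the background, and the shares give 3.3 falls with siPARP1_B and 3.5 with siPARP2_A. With siPARP1_B 4 to 5 were called without siNC replicate 2 or either siPARP1_B library, and 5 with edgeR, and with siPARP2_A 7 were called without siPARP2_A replicate 2. GCLC and GCLM, the subunits of the enzyme that starts glutathione synthesis, fell with siPARP1_A (-0.98 and -0.96), where SLC7A11 fell (-0.23), while heme oxygenase HMOX1 rose by 2.14. TXNRD1, thioredoxin reductase, averaged 1430 normalised reads per M with siPARP2_B, against 798 with siNC (0.84).

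Of 12 genes of glutamine use, 2 rose and 6 fell with UPF1069, 8 fell with olaparib and 3 fell with veliparib. The shares of all genes give 1.7 falls with UPF1069 and 3.2 with olaparib, and the veliparib count was near the background. With UPF1069 5 were called without DMSO replicate 1, 4 without UPF1069 replicate 2 and 5 with DESeq2, and with veliparib 5 without veliparib replicate 2. GLS2, a glutaminase, and GLUL, glutamine synthetase, rose with UPF1069 by 0.70 and 0.59, and CAD, which starts pyrimidine synthesis, fell with olaparib (-0.50). With siPARP1_A 3 rose and 6 fell, with siPARP1_B 5 rose and 3 fell, with siPARP2_A 4 rose and 4 fell, and with siPARP2_B 3 rose and 8 fell. The siPARP1_A and siPARP2_A counts were near the background, and with siPARP1_B 4 to 5 were called without siNC replicate 1 or either siPARP1_B library. Glutamate dehydrogenase, GLUD1, averaged 247 normalised reads per M with siPARP2_B, against 633 with siNC (-1.36), and GLUL averaged 141 with siPARP2_A and 361 with siPARP2_B, against 224 with siNC (-0.66 and 0.68). Of 23 genes of amino acid sensing at the lysosome and mTORC1, 22 were tested. With UPF1069 7 rose, with olaparib 13 rose and 4 fell, and with veliparib 7 rose and 5 fell. The shares of all genes give 2.3, 5.7 and 3.8 rises in the same order. With UPF1069 4 to 5 were called without any 1 library and 13 with only the groups compared, and with veliparib 7 were called without DMSO replicate 1. SESN1, a sestrin that restrains mTORC1, averaged 200 CPM with UPF1069 and 250 CPM with olaparib, against 126 CPM with DMSO (0.66 and 0.98), and MTOR fell with olaparib (-0.58). With siPARP1_A 7 rose and 4 fell, with siPARP1_B 4 rose and 6 fell, with siPARP2_A 7 rose and 4 fell, and with siPARP2_B 6 rose and 9 fell, all of them near the background. SLC38A9, the arginine sensor of the lysosome, rose with siPARP2_A and siPARP2_B by 0.55 and 1.30, and SESN3 fell with siPARP1_A and siPARP1_B (-1.57 and -1.51).

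For each transporter the 3 genes with the most similar pattern were taken from 8518 genes, by Pearson's r over the 18 libraries after subtracting the mean of each table's control; libraries of a group and of a table share their cells and scaling, so r is a description only. SLC3A2 was closest to CD55 (0.98), GTPBP2 (0.971) and GNB1L (0.963), SLC38A1 to WDR3 (0.964), LNP1 (0.962) and CHORDC1 (0.962), and SLC38A2 to RAB27B (0.959), RAC1 (0.94) and LAMB1 (0.93). SLC7A5 was closest to TRIB3 (0.956), MARS (0.949) and GARS (0.948), of which the last 2 encode the tRNA synthetases of methionine and glycine. SLC1A5 was closest to STC2 (0.927), HSPA13 (0.918) and FLJ46906 (0.906), SLC1A4 to CLIC4 (0.937), RNF187 (0.896) and GLIDR (0.891), and SLC7A1 to TMEM43 (0.926), DDX31 (0.9) and FN3KRP (0.899). SLC7A11 had the weakest likeness, with FAM114A2 (0.856), TERF1 (0.847) and NDUFAF4 (0.846). Of these genes TRIB3 and STC2 belong to the lists of ATF4 factors and targets.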

How the data were processed

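RNA was sequenced from LNCaP cells with the NEBNext Ultra kit, per the labels' protocols. Per the submitters' processing notes the build was hg19 and the tools were TopHat2 2.1.0, HTSeq 0.6.1, bcl2fastq 2.18 and edgeR 3.12.0, with no role stated. The inhibitor table holds CPM, as deposited by the authors. The siRNA table holds a normalised signal, deposited by the authors as reads per M of a scaled library size, with column sums of 964646.5 to 1122366.8. No strand setting is given in the sources used here. Each value was divided by the step of its library, and 100% of values lay within 0.01 of a whole read.

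The transporters, gene lists, named-gene rule and tests were chosen with earlier results of these data known. The main test was limma 3.58.1 in R 4.3.3 (lmFit and eBayes with trend, 2-sided) on log2(value + 1), since the tables hold no raw counts. Genes averaging 1 or more in a table were tested, 13337 with the inhibitors and 12701 with the siRNAs, with all groups of a table in 1 fit. A log2 fold change on this scale understates the change of low genes. The p values of a comparison were adjusted by Benjamini-Hochberg over all its genes, and an adjusted p under 0.05 is a call, written as rose or fell. With 2 libraries against 2 an exact permutation test cannot go below 0.333, so the limma p values rest on a spread shared between genes. The p values measure the spread between these libraries only, and floors of 3 reads cover counting error only. Shares of genes with libraries apart are given only for lower values with UPF1069 against DMSO and for higher values with siPARP2 against siPARP1.

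All 8 transporters are named in each comparison. Of each gene list at most the 2 largest rises and 2 largest falls of a comparison are named, ATF4 always. Alternatives were edgeR 4.0.16 and DESeq2 1.42.0 on the recovered reads, scaling by library totals, a pseudocount of 0.5, no filter, only the groups compared, the replicate number as a block, leaving out each library and, for veliparib, a loess correction for GC content and length from GENCODE v29, available for 98% of tested genes. Applying these settings to the gene lists was added after seeing the data. Exon lengths come from the same annotation, and a symbol was missing for 4941 and 3517 features, 823 and 703 of them after a search by identifier. The fit was tested on simulated data.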

Additional observations from a re-analysis of the deposited data

Results flagged for a closer look

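The results below were picked out because treatments compared with the same control moved a transporter in opposite directions, each call past the threshold, and the direct difference between the treatments was itself called by limma. The share of all tested genes that meet this rule is not given. Direct differences alone were common: 28.4% of all genes were higher and 26.5% lower between the siPARP1 sequences, and 34.3% and 30.6% between the siPARP2 sequences. SLC3A2, SLC7A1 and SLC1A4 fell with siPARP1_A and rose with siPARP1_B, with direct log2 differences of -0.38, -0.91 and -1.24 (adjusted p = 7.88e-06, 2.64e-11 and 7.56e-10). SLC38A1 and SLC38A2 differed between siPARP2_A and siPARP2_B by 1.22 and -1.35 (adjusted p = 2.28e-14 and 2.5e-14): SLC38A1 rose with siPARP2_A and fell with siPARP2_B, and SLC38A2 fell with siPARP2_A and rose with siPARP2_B. SLC7A11 and SLC3A2 fell with UPF1069 and rose with olaparib, with direct differences of -0.98 and -0.34 (adjusted p = 1.84e-14 and 2.6e-07). SLC38A1 fell with UPF1069 and rose with veliparib (-0.45, adjusted p = 4.4e-09). After correction for GC content and length that difference was -0.28, and SLC38A1 no longer rose with veliparib (-0.04, adjusted p = 0.321). SLC3A2 rose with olaparib and fell with veliparib (0.36, adjusted p = 7.4e-08, or 0.22 after correction). The opposed calls of SLC3A2 with olaparib, SLC38A1 with veliparib, and SLC3A2 and SLC7A1 with siPARP1_B are the weak ones among these, since each ended without at least 1 of its libraries.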

How the results depend on the processing

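Of 1224 values of single transporters under another setting, 51 lost their call, 19 gained one and 8 reversed; a further 12 changed sign without being called on either side. The 8 reversals all came with the correction for GC content and length, without and with the replicate block: SLC38A1 at -0.04 and SLC38A2 at -0.09 with veliparib against DMSO, SLC3A2 at -0.15 with UPF1069 against veliparib, and SLC1A5 at -0.02 with olaparib against veliparib. Of the 448 values with 1 library left out, 33 lost their call, 8 gained one and 0 reversed. The count of called transporters stayed within 1.5 times its main value under every setting run. Leaving out 1 library it was 8 with UPF1069, 3 with olaparib, 4 to 7 with veliparib, 6 to 7 with siPARP1_A, 6 with siPARP1_B, 4 to 6 with siPARP2_A and 6 to 7 with siPARP2_B. Between treatments it was 7 for UPF1069 and olaparib, 4 to 6 for UPF1069 and veliparib, 7 to 8 for olaparib and veliparib, 4 to 6 for the siPARP1 and 5 to 6 for the siPARP2 sequences, and 5 to 7 for the target means.

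With the replicate number as a block, 1 of 104 values of single transporters, called or not, changed its status. SLC1A4 between UPF1069 and veliparib became a call, at -0.18 (limma adjusted p = 0.0405). Deviations of same-numbered libraries correlated at -0.06 to 0.03 in the inhibitor and -0.141 to 0.115 in the siRNA table. No strong shared effect of the replicate number was visible, but the study does not say whether same-numbered libraries were prepared together.

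Scaling by library totals alone moved the median of all genes by 0.159 for siPARP2_B against siNC and by -0.183 for siPARP2_A against siPARP2_B. It gave 5254 higher and 3316 lower genes with siPARP2_B (otherwise 3924 and 4466), 3949 and 2979 with siPARP1_A (otherwise 3243 and 3670), and 3013 and 5472 between the siPARP2 sequences (otherwise 4353 and 3882). Of all genes, DESeq2 called 2146 with UPF1069 and leaving out 1 library 1575 to 1770, against 3245 by limma and 5041 with only the groups compared; the GC and length correction left 3040 with veliparib and leaving out DMSO replicate 1 left 3560, against 5387. Depth limits SLC7A5 and SLC1A4 most. The cause of these changes was not tested.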
